A study of Rattus norvegicus with 4 samples.

Results

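Aminoacyl-tRNA synthetases are the enzymes that join each amino acid to its transfer RNA, and their genes were followed here in cultured rat cortical neurons given topotecan or the solvent DMSO. The members are the genes whose description in the deposited table contains the words tRNA synthetase or tRNA ligase and whose counts sum to 20 or more over the 4 libraries. This gave 38 genes of 21648 gene identifiers. They comprise 20 cytosolic enzymes, 14 mitochondrial enzymes and 4 related proteins that the same words bring in and that are not synthetases (Aimp1, Aimp2, Aarsd1 and Prorsd1). A symbol ending in 2 marks the mitochondrial form, with the exceptions of Tarsl2, a threonyl enzyme of the cytosolic type, and Aimp2, a scaffold protein. Of 41 identifiers with a matching description, 3 fell under the minimum. The mitochondrial glutamyl gene Ears2 had 1 count in each of 2 libraries, and the mitochondrial methionyl gene Mars2 and a second entry described as being like it (LOC100911305) had 0 counts. The last pair carry a common Entrez number, and the handling of reads shared by near-identical copies is not stated, so these entries are uncertain. All 38 members passed the filter on low counts. The glutaminyl gene Qars and the mitochondrial threonyl gene Tars2 were not analysed here. Symbols are those of the table, where Nars, for example, is the gene now called Nars1.

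The cells were cortical neurons from embryos of day 18 of Rattus norvegicus, bought from a commercial supplier, and no allele or strain is named in the labels. There were 2 topotecan libraries and 2 DMSO libraries of total RNA. Topotecan traps topoisomerase I on DNA, and inhibitors of this enzyme are known to reduce transcription of long genes in neurons. The labels give neither the dose nor the time of exposure, and do not say that the replicates were separate cultures, so p-values measure the spread between these libraries, which may be technical.

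The cytosolic enzymes feed the ribosomes of the cytoplasm, and a separate set encoded in the nucleus and imported into mitochondria feeds the ribosomes there. Several cytosolic enzymes are held in the multi-synthetase complex by the scaffold proteins Aimp1, Aimp2 and Eef1e1. Glycine and lysine enzymes of both compartments come from the same genes, Gars and Kars. ATF4, the transcription factor of the integrated stress response, is known to raise many cytosolic synthetase genes when amino acids run short. Inherited changes in human synthetase genes cause peripheral neuropathies, among them cytosolic forms such as GARS1 and YARS1.

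The topotecan libraries held 31181382 and 25459488 gene counts and the DMSO libraries 27347410 and 22957786. The 29 pan-neuronal markers with a row summed to 54814 and 55907 CPM (counts per 1000000 gene counts after scaling) in topotecan, against 48213 and 44936 CPM in DMSO. Markers of other cells differed far more. The 12 astrocyte markers summed to 538 and 580 CPM in topotecan, against 6357 and 6462 CPM in DMSO, and all 12 were lower. The 12 oligodendrocyte lineage markers summed to 143 and 129 CPM in topotecan, against 4218 and 4532 CPM in DMSO, all 12 lower, with Sox10 at 0 in topotecan. The 9 progenitor and cycling cell markers with a row summed to 13.0 and 12.3 CPM in topotecan, against 385 and 361 CPM in DMSO, 7 of 8 tested being lower and Hes5 at 0 in topotecan. Fibroblast and mural markers summed to at most 4.68 CPM in topotecan and 9.04 CPM in DMSO, endothelial markers to at most 0.436 and 1.89 CPM, and microglia markers to at most 0.595 and 0.814 CPM. In bulk RNA, fewer cells of a type and less RNA per cell cannot be told apart. The part of these differences in the synthetase results was not tested.

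With trimmed-mean (TMM) scaling, which takes most genes as unchanged, 10 of 20 cytosolic and 1 of 14 mitochondrial synthetase genes were higher in topotecan. These counts fell to 1 and 0 when libraries were scaled to pan-neuronal markers. Those markers are not a fixed reference, since 10 of the 29 were themselves higher and 1 lower with TMM scaling. Tubb3, the marker with the most counts, had 9511 and 7676 CPM in the DMSO libraries. Mitochondrial enzymes summed to a mean of 270 CPM in topotecan, against 11724 CPM for cytosolic ones, so calls are harder to reach among them. With TMM scaling Yars (log2 fold change 0.38, SE 0.07) passed and the mitochondrial Vars2 (0.38, SE 0.18) did not. The counts of calls therefore do not compare the size of the change between the classes. Of the 38 members, 15 were higher and 3 lower at an edgeR adjusted p under 0.05, where 16.2% of the 12162 genes tested were higher and 23.5% lower. Of the cytosolic enzymes 1 was lower, and the cytosolic median log2 fold change was 0.24. Of the mitochondrial enzymes 2 were lower, and their median was -0.11. The median of all genes tested was -0.01. With libraries scaled to the pan-neuronal markers the median of all genes moved by -0.25, the cytosolic median went to -0.01 with 1 gene higher and 2 lower, and the mitochondrial median went to -0.36 with 0 higher and 7 lower. Over all genes tested 4.0% were higher and 36.9% lower with that scaling, which shifts all genes by nearly the same amount and so cannot alter how a class stands to the rest. With TMM scaling the cytosolic median minus the median of all genes was 0.25, and the mitochondrial one -0.10. Leaving out 1 library at a time, the cytosolic distance ran from 0.20 to 0.35. The mitochondrial distance was -0.019 without topotecan replicate 1 and -0.20 without DMSO replicate 2. Fewer cytosolic genes passed as higher without topotecan replicate 1, and more without DMSO replicate 2. Without topotecan replicate 1 the number higher also fell over all members and over all genes tested. Without DMSO replicate 2 the number over all genes tested changed little. The difference between the classes itself was given no test over genes.

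**Figure D1:**
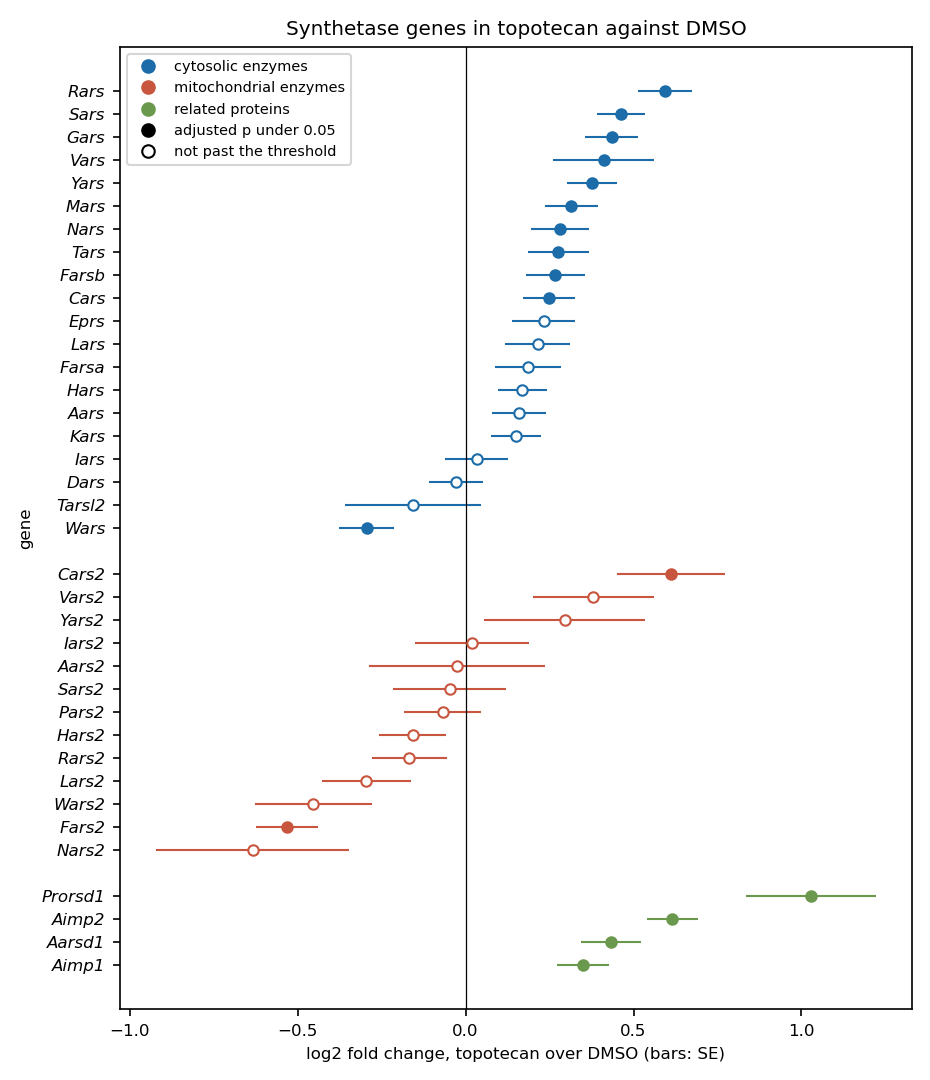
Fitted log2 fold change of 37 of the 38 genes, topotecan over DMSO, with its standard error, by class (2 libraries per group); filled points passed the adjusted p of 0.05. Cytosolic enzymes run from 0.59 (Rars) to -0.29 (Wars) and mitochondrial enzymes from 0.61 (Cars2) to -0.63 (Nars2); with libraries scaled to pan-neuronal markers the cytosolic median of 0.24 becomes -0.01.

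Among cytosolic enzymes the highest fold change was that of Rars (ENSRNOG00000007739), which charges arginine and sits in the multi-synthetase complex. It had 406 and 373 CPM in topotecan, against 251 and 265 CPM in DMSO, a log2 fold change of 0.59 (SE 0.08, edgeR adjusted p = 4.55e-05). Both topotecan libraries stood clear of both DMSO libraries, and Rars was the cytosolic enzyme that also passed as higher with the pan-neuronal scaling (0.34). Sars (ENSRNOG00000020255), the seryl enzyme, had 1932 and 1827 CPM in topotecan, against 1328 and 1400 CPM in DMSO (log2 fold change 0.46, SE 0.07, edgeR adjusted p = 0.000147). Gars (ENSRNOG00000011052), which serves both compartments with glycyl-tRNA, had 584 and 541 CPM in topotecan, against 435 and 397 CPM in DMSO (0.44, SE 0.08, edgeR adjusted p = 0.000633). The groups did not overlap for either gene, and neither passed with the pan-neuronal scaling, where their log2 fold changes were 0.21 and 0.19. Vars (ENSRNOG00000000867), the valyl enzyme, had 14.3 and 15.5 CPM in topotecan, against 12.3 and 10.02 CPM in DMSO (0.41, SE 0.15, edgeR adjusted p = 0.0426). This call rested on few counts, 234 to 438 per library, and held in 3 of the 10 other settings. It was lost without topotecan replicate 1, topotecan replicate 2 or DMSO replicate 2, with library totals only, with DESeq2, with the replicate block and with the pan-neuronal scaling.

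Besides Sars, the enzymes with the most counts were Nars, Eprs and Aars. Nars (ENSRNOG00000017852), the asparaginyl enzyme, had 2276 and 1994 CPM in topotecan, against 1635 and 1880 CPM in DMSO (log2 fold change 0.28, SE 0.09, edgeR adjusted p = 0.0183). Its second libraries lay close together, at 1994 CPM in topotecan and 1880 CPM in DMSO, and the call was lost without topotecan replicate 1 and with the pan-neuronal scaling (0.03). Eprs (ENSRNOG00000002393), a fused enzyme for glutamate and proline, had 1114 and 1004 CPM in topotecan, against 811 and 991 CPM in DMSO, and did not pass (0.23, SE 0.09, edgeR adjusted p = 0.0632), though it did with the replicate number as a block, with no count filter, without topotecan replicate 2 and without DMSO replicate 2. With the pan-neuronal scaling its estimate was -0.02. Aars (ENSRNOG00000018404), the alanyl enzyme, had 852 and 788 CPM in topotecan, against 693 and 776 CPM in DMSO (0.16, SE 0.08, edgeR adjusted p = 0.133). It passed without DMSO replicate 2, and its estimate was -0.09 with the pan-neuronal scaling. In all 3 genes DMSO replicate 2 was the closer of the DMSO libraries to topotecan.

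The other cytosolic genes that passed as higher were Yars (tyrosine, log2 fold change 0.38), Mars (methionine, 0.31), Tars (threonine, 0.28), Farsb (the beta subunit of the phenylalanyl enzyme, 0.27) and Cars (cysteine, 0.25), with SEs from 0.07 to 0.09. Without topotecan replicate 1 Mars, Tars, Farsb and Cars no longer passed, Tars did not pass without DMSO replicate 1 either, Tars and Farsb did not pass with library totals only, and none of the 5 passed with the pan-neuronal scaling. Mars overlaps the stress gene Ddit3 by 62 bases in RefSeq GRCr8, and without knowledge of strand in the counting a few reads could belong to either. Wars (ENSRNOG00000004359), the tryptophanyl enzyme, whose human counterpart interferon induces, was the cytosolic gene that was lower. It had 449 and 456 CPM in topotecan, against 515 and 594 CPM in DMSO (-0.29, SE 0.08, edgeR adjusted p = 0.0117), and it did not pass without topotecan replicate 1 or without topotecan replicate 2. The enzymes for leucine (Lars), the alpha phenylalanyl subunit (Farsa), histidine (Hars), lysine (Kars), isoleucine (Iars), aspartate (Dars) and Tarsl2 did not pass, with log2 fold changes from 0.21 to -0.16.

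**Figure D2:**
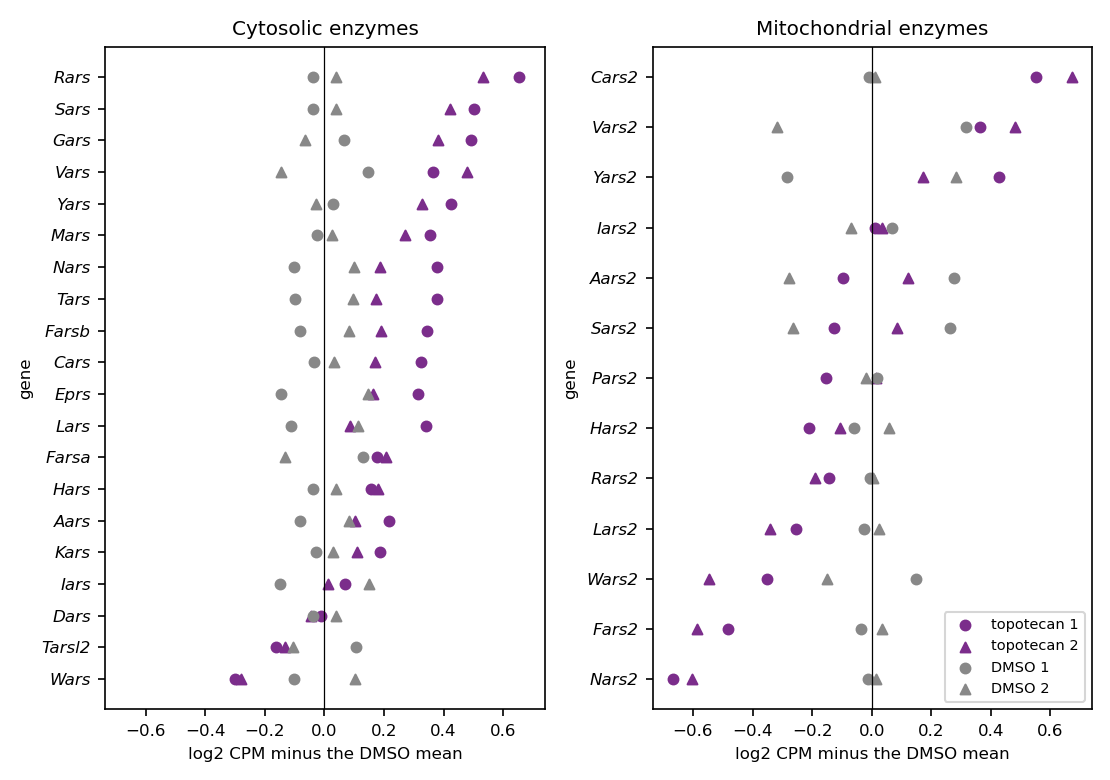
Level of the 20 cytosolic and 13 of the 14 mitochondrial genes in each of the 4 libraries, as log2 CPM minus the mean of the DMSO libraries; circles are replicate 1 and triangles replicate 2. In 15 of 20 cytosolic genes both topotecan libraries lie above both DMSO libraries, and in 6 of the 13 mitochondrial genes drawn both lie below; the positions move together to the left with the pan-neuronal scaling, which shifts the median of all genes by -0.25.

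Of the cytosolic enzymes, 15 had both topotecan libraries above both DMSO libraries and 2 had both below. Over all genes tested the shares were 33.7% above and 36.9% below. Among mitochondrial enzymes 2 stood above and 7 below. The cytosolic enzymes were also split by what is known of their control. The counts that follow are of calls with TMM scaling, where 16.2% of all genes tested were higher and 23.5% lower. With the pan-neuronal scaling Rars was the only cytosolic enzyme that was higher. Of the 12 known as ATF4 targets 7 were higher and 1 lower (median 0.26), and of the 8 others 3 were higher and 0 lower (median 0.18; of those 8, Rars, Vars and Farsb passed). By catalytic fold, 5 of 8 class I cytosolic enzymes were higher and 1 lower, and 5 of 11 class II enzymes were higher and 0 lower, leaving out Eprs, which joins both folds.

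Promoter windows of RefSeq GRCr8 (250 bases before to 50 after the gene start) were searched for the core of the C/EBP-ATF response element, TGATGNAA, on both strands, since ATF4 and its partners bind such elements. Of 34 members with a window, 7 held it, all of them cytosolic enzymes on the ATF4 target list. This was 7 of 17 cytosolic windows and 0 of 13 mitochondrial ones, against 3.98% of all 33469 windows and 2.21% of the 9614 tested genes with a window. The sites are shown so that the N position and the flanks can be compared. The search itself fixed the other letters of the motif, and the window kept every site near a gene start. Each is given 5′ to 3′ on the strand of its gene, with the motif in capitals, read there either forward or as its reverse complement.

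Nars, chr18:60275778-60275807, minus strand: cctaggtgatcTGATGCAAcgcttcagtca
Mars, chr7:65023752-65023781, minus strand: gcccgttccggTTGCATCAgcgtgggctcc
Tars, chr2:62114811-62114840, minus strand: ctggcgtcccgTTGCATCAgctggttagct
Iars, chr17:15193658-15193687, minus strand: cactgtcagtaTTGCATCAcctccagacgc
Aars, chr19:55908480-55908509, plus strand: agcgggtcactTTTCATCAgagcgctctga
Cars, chr1:208225334-208225363, minus strand: cggcgccgcggTTGCATCAgattctggaaa
Yars, chr5:146820190-146820212, plus strand: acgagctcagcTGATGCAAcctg

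Read on the motif's own strand, the sites shown were TGATGCAA, except that of Aars, which was TGATGAAA. Counted from the gene start, the motif began at -14 in Nars, -17 in Mars, -24 in Iars and -27 in Tars. It began at 10 in Aars, at 18 in Cars and at 39 in Yars. Of these 7 genes 5 were higher in topotecan (Yars, Mars, Nars, Tars and Cars) and Aars and Iars did not pass, with a median log2 fold change of 0.28. Of the 10 cytosolic enzymes whose window lacked the motif 3 were higher and 1 lower, with a median of 0.20. Over all genes tested 16.2% were higher and 23.5% lower. Rars, Gars and Dars have no window in the table. With the pan-neuronal scaling none of the 7 genes passed as higher.

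All 4 related members were higher, where 16.2% of all genes tested were, and their median log2 fold change was 0.52. Of these members Aimp2 and Prorsd1 were also higher with the pan-neuronal scaling. Aimp2 (ENSRNOG00000001044), the scaffold that holds the parts of the multi-synthetase complex together, had 425 and 411 CPM in topotecan, against 279 and 266 CPM in DMSO (0.62, SE 0.08, edgeR adjusted p = 2.04e-05). Aimp1, the scaffold next to Rars in the complex, had 327 and 322 CPM in topotecan, against 246 and 263 CPM in DMSO (0.35, SE 0.08, edgeR adjusted p = 0.00269). Eef1e1, the complex's remaining scaffold and not a member by description, had 200 and 177 CPM in topotecan, against 128 and 118 CPM in DMSO (0.61, SE 0.09, edgeR adjusted p = 0.000105). All 3 scaffold genes had both topotecan libraries above both DMSO libraries, as did 33.7% of all genes tested. Of the 7 cytosolic enzymes of the complex Rars and Mars passed, and Eprs, Lars, Kars, Iars and Dars did not.

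Aarsd1 (ENSRNOG00000020658), which clears wrongly charged serine from alanine tRNA, had 381 and 378 CPM in topotecan, against 306 and 255 CPM in DMSO (log2 fold change 0.43, SE 0.09, edgeR adjusted p = 0.00165). Prorsd1 (ENSRNOG00000004145), related to a bacterial editing domain for proline tRNA, had the highest fold change of the 38 members. It had 8.06 and 7.42 CPM in topotecan, against 3.26 and 4.37 CPM in DMSO (1.03, SE 0.19, edgeR adjusted p = 0.000831). It rests on 90 to 247 counts per library and, with Aimp2 and Rars, made up the 3 members that were higher with the pan-neuronal scaling. Aarsd1 and Aimp1 did not pass there, at 0.19 and 0.10.

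Among the mitochondrial enzymes Fars2 was lower and Cars2 was higher, the second not with the pan-neuronal scaling. Estimates were below 0 in 10 of 14 genes, 3 of 7 of class I and all 7 of class II. The median of all genes tested was itself -0.01. Of the class II enzymes Aars2 (-0.03, SE 0.26), Sars2 (-0.05, SE 0.17) and Pars2 (-0.07, SE 0.11) lay within 1 SE of 0. Fars2 (ENSRNOG00000016135), the mitochondrial phenylalanyl enzyme, had 66.9 and 62.2 CPM in topotecan, against 91.2 and 95.7 CPM in DMSO (log2 fold change -0.53, SE 0.09, edgeR adjusted p = 0.000435). Both topotecan libraries were well below both DMSO libraries, and the call held under each of the 10 other settings tried. Cars2 (ENSRNOG00000014526), the mitochondrial cysteinyl enzyme, was the gene of this class that was higher. It had 9.04 and 9.84 CPM in topotecan, against 6.13 and 6.21 CPM in DMSO (0.61, SE 0.16, edgeR adjusted p = 0.00825), and it did not pass without topotecan replicate 2 or with the pan-neuronal scaling (0.36).

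Of the mitochondrial genes 11 did not pass. Nars2 had 1.17 and 1.23 CPM in topotecan, against 1.85 and 1.88 CPM in DMSO (log2 fold change -0.63, SE 0.29), on only 31 to 51 counts per library. Wars2 had 6.59 and 5.75 CPM in topotecan, against 9.32 and 7.58 CPM in DMSO (-0.45, SE 0.18). Lars2 had 14.2 and 13.4 CPM in topotecan, against 16.6 and 17.2 CPM in DMSO (-0.30, SE 0.13). In these 3 genes both topotecan libraries lay below both DMSO libraries, as in 36.9% of all genes tested, although the test was not passed. Rars2, Hars2, Pars2, Sars2, Aars2 and Iars2 lay between -0.17 and 0.02, and Yars2 and Vars2 at 0.29 and 0.38, with DMSO libraries that differed widely (9.64 and 14.9 CPM for Vars2). With the pan-neuronal scaling Lars2, Wars2, Nars2, Rars2 and Hars2 were among the 7 that were lower.

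Setting the mitochondrial against the cytosolic enzymes within a library needs no scaling between libraries. Mitochondrial enzymes took 2.15% and 2.37% of the summed enzyme counts in topotecan, against 3.27% and 2.98% in DMSO. The exact 95% binomial intervals ran from 2.10% to 2.19% and from 2.31% to 2.42% in topotecan, and from 3.21% to 3.34% and from 2.91% to 3.04% in DMSO, and they cover counting error only. The mean was 2.26% ± 0.156 in topotecan and 3.12% ± 0.210 in DMSO (SD, n = 2 each), with no overlap. An exact 2-sided permutation test gave p = 0.333, the smallest that 2 libraries against 2 allow. The share is of counts, not divided by transcript length. Gars and Kars, which serve both compartments, were counted as cytosolic. The sums hold members only, so Ears2, Mars2 and Tars2 are not in them. The summed level of mitochondrial enzymes was 268 and 272 CPM in topotecan, against 316 and 314 CPM in DMSO. That of cytosolic enzymes was 12207 and 11242 CPM in topotecan, against 9349 and 10249 CPM in DMSO. Without Nars and Fars2, the genes with the most counts in each class, the difference in share was -0.59 percentage points in place of -0.87.

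Pairs of enzymes for the same amino acid were compared as the log2 ratio of mitochondrial to cytosolic counts in each library. In 7 of 14 pairs the ratio was lower in both topotecan libraries than in both DMSO libraries, in 1 pair (cysteine) it was higher, and in 6 pairs the groups overlapped. For single genes the shares over all tested were 36.9% and 33.7%, as given above, for levels and not for ratios. The phenylalanine pair was the one whose members passed in opposite directions. Fars2 over Farsb had log2 ratios of -2.17 and -2.13 in topotecan, against -1.30 and -1.40 in DMSO. Farsb (ENSRNOG00000014119) itself had 302 and 271 CPM in topotecan, against 225 and 252 CPM in DMSO (edgeR adjusted p = 0.0258). Against the alpha subunit gene Farsa the ratio was -0.75 and -0.88 in topotecan and -0.25 and 0.08 in DMSO. Both ratios share Fars2, so the second is not separate support. Farsa itself did not pass (log2 fold change 0.19, edgeR adjusted p = 0.154). For arginine, Rars2 over Rars had log2 ratios of -3.91 and -3.83 in topotecan, against -3.07 and -3.14 in DMSO. Rars2 overlaps Slc35a1 by 7820 bases and Orc3 by 1062 bases in RefSeq GRCr8, both on the other strand. Without knowledge of strand in the counting some of its reads could belong to those genes. For asparagine, Nars2 over Nars had -10.92 and -10.66 in topotecan, against -9.79 and -9.96 in DMSO. Nars2 rests on 31 to 51 counts per library. It overlaps the noncoding genes LOC108349194 by 24021 bases and LOC134485155 by 17873 bases on the other strand, so its reads could be shared too. Leucine, serine and histidine were further pairs with a lower ratio. For serine the groups nearly met, at -6.98 and -6.69 in topotecan, against -6.05 and -6.66 in DMSO. In the serine pair Sars2 overlaps LOC103689966 by 15430 bases on the same strand, so its reads could be shared as well. The cysteine pair had -6.44 and -6.16 in topotecan, against -6.64 and -6.69 in DMSO.

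**Figure D3:**
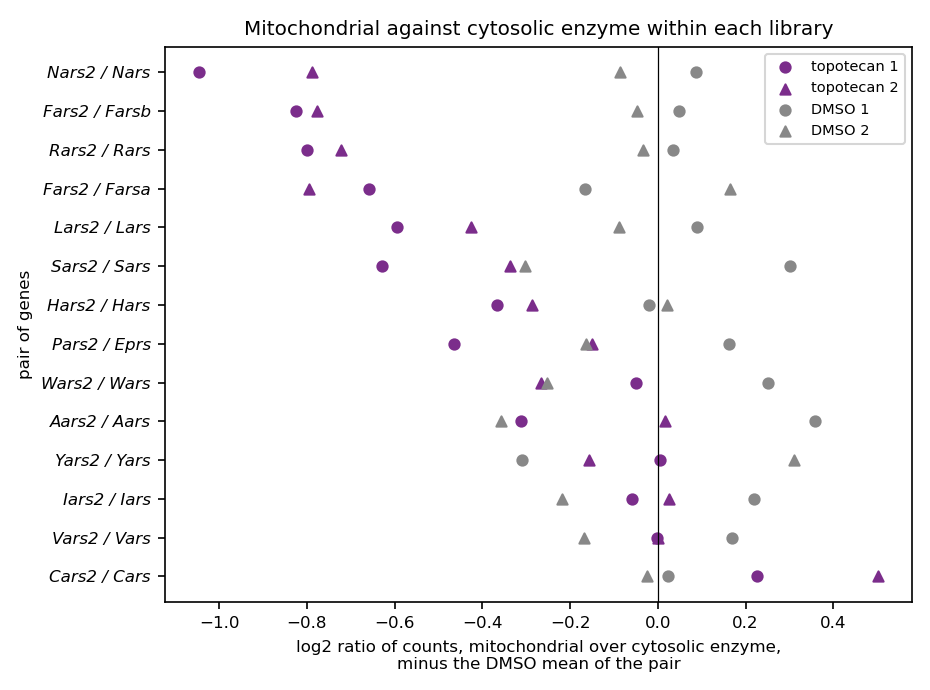
Log2 ratio of mitochondrial to cytosolic enzyme counts in each library, minus the DMSO mean of the pair, for 13 amino acids (phenylalanine is drawn with each cytosolic subunit); a value of 0 is the DMSO mean. Asparagine, phenylalanine and arginine lie farthest to the left in topotecan, at mean differences of -0.92, -0.80 (beta subunit) and -0.76, and cysteine lies to the right at 0.36.

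The histidine pair shares a promoter region. In RefSeq GRCr8 Hars and Hars2 lie head to head on opposite strands, and the 97 bases between the gene records, chr18:28672713-28672809, given on the plus strand towards Hars2, are shown because this stretch lies before both genes. The gene starts behind the promoter windows lie 143 bases apart, since that of Hars2 falls inside its gene record.

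Hars2 and Hars, shared region: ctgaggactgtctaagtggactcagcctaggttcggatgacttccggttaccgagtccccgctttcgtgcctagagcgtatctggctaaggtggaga

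Neither gene passed, and their estimates, of opposite sign here, were both below 0 with the pan-neuronal scaling. Hars had 585 and 594 CPM in topotecan, against 510 and 539 CPM in DMSO (log2 fold change 0.17, SE 0.07). Hars2 had 51.7 and 55.6 CPM in topotecan, against 57.4 and 62.3 CPM in DMSO (-0.16, SE 0.10). Their log2 ratio, Hars2 over Hars, was -3.50 and -3.42 in topotecan, against -3.15 and -3.11 in DMSO. The stretch holds no TGATGNAA.

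Gene span, the distance from start to end of a gene, was set beside the fold changes because of the known effect of topoisomerase I inhibitors on long genes, and all values in this paragraph are of TMM scaling. Cytosolic enzymes span 9.58 to 71.6 kb (median 26.3 kb) and mitochondrial ones 5.10 to 427 kb (median 31.1 kb), against a median of 26.0 kb over 11778 tested genes with a span. The 4 longest members, a limit of 80 kb set after the values were seen, are mitochondrial: Fars2 (427 kb), Nars2 (112 kb), Lars2 (96.1 kb) and Wars2 (83.3 kb). All 4 had estimates below 0 with separate groups, and of them only Fars2 passed. Over all genes tested 36.9% had both topotecan libraries below both DMSO libraries. The next longest member, the cytosolic Eprs (71.6 kb), was at 0.23. The log2 fold change of Fars2 (-0.53) was near the median of the 603 tested genes of 200 to 500 kb (-0.54). Among genes of 10 to 30 kb the median was 0.30 for 10 cytosolic and -0.04 for 4 mitochondrial enzymes, against 0.06 for all 3697 genes. Among genes of 30 to 100 kb it was 0.21 for 9 cytosolic and -0.17 for 5 mitochondrial enzymes, against -0.07 for all 3428 genes. In both ranges the mitochondrial median lay below the cytosolic one, but spans within a range were not matched. Of the mitochondrial enzymes of 30 to 100 kb, Lars2 and Wars2 are longer than every cytosolic enzyme, and Cars2 was at 0.61. As a description, span and log2 fold change had a Spearman's rho of -0.63 over the 14 mitochondrial and -0.26 over the 20 cytosolic enzymes, which share the same 4 libraries, and -0.28 over all tested genes with a span. Wars, the cytosolic gene that was lower, spans 31.2 kb. The part of gene span in these values was not tested.

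**Figure D4:**
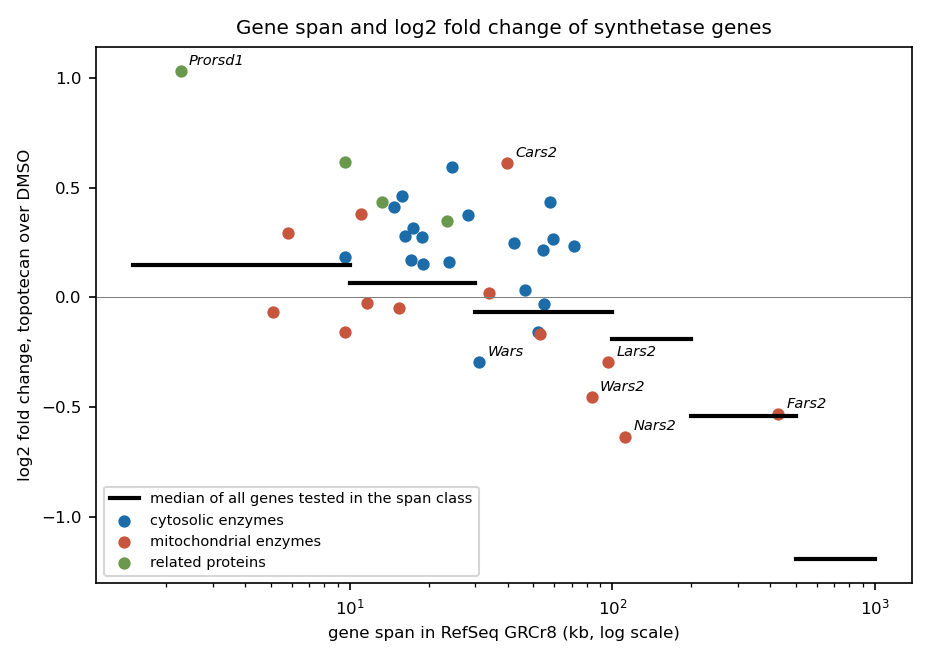
Log2 fold change, topotecan over DMSO, against gene span (kb, log axis) for 37 of the 38 genes; black bars give the median of all tested genes in each span class. Fars2, at 427 kb, lies near the bar of its class at -0.54, and the cytosolic enzymes of 10 to 30 kb have a median of 0.30 against a bar at 0.06; under the pan-neuronal scaling all values shift down, the median of all genes by -0.25.

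Of 25 genes tested that act on tRNA beside the synthetases 7 were higher and 1 lower, with a median of 0.21, where 16.2% of all genes were higher and 23.5% lower. With the pan-neuronal scaling 3 were higher and 4 lower, where 4.0% of all genes were higher and 36.9% lower. The largest changes besides Eef1e1 were those of Ptrh2, which frees stalled peptidyl-tRNA (64.0 and 57.9 CPM in topotecan, against 39.8 and 38.8 CPM in DMSO, log2 fold change 0.63, SE 0.10), and Dtd1, which removes D-amino acids from tRNA (596 and 601 CPM in topotecan, against 404 and 385 CPM in DMSO, 0.60, SE 0.07). Both had separate groups, as 33.7% of all genes tested did in that direction, with edgeR adjusted p-values of 0.000252 and 1.96e-05. Sepsecs, which makes selenocysteine on its tRNA, was lower, with 16.7 CPM in each topotecan library, against 22.1 and 25.7 CPM in DMSO (-0.51, SE 0.13). Fewer of these partner genes were higher without topotecan replicate 1 and more without DMSO replicate 1. The number over all genes tested moved in the same directions.

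Stress response genes of the ATF4 pathway moved in both directions. Of 20 tested 11 were higher and 2 lower, with a median of 0.29, beside the same shares of 16.2% and 23.5% over all genes. With the pan-neuronal scaling 3 were higher and 4 lower, beside 4.0% and 36.9%. Atf4 itself had 996 and 791 CPM in topotecan, against 652 and 620 CPM in DMSO (log2 fold change 0.49, SE 0.10). Trib3, a pseudokinase induced by ATF4, had 23.5 and 23.9 CPM in topotecan, against 12.3 and 12.6 CPM in DMSO (0.93, SE 0.13, edgeR adjusted p = 5.57e-05). Chac1, which breaks down glutathione, was at 0.66 (SE 0.11) and Ddit3, a transcription factor of the same pathway, at 0.63 (SE 0.10). Phgdh, the first enzyme of serine synthesis, had 65.4 and 69.96 CPM in topotecan, against 309 CPM in each DMSO library (-2.19, SE 0.08, edgeR adjusted p = 8.42e-11), and Slc7a11, the cystine transporter, was at -1.56 (SE 0.21). Both fell in libraries where the astrocyte markers summed to 580 CPM or less in topotecan, against 6357 CPM or more in DMSO, and the part of those cells in the values was not tested. Without topotecan replicate 1 fewer of the ATF4 genes were higher, and so were fewer of all genes tested.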

How the data were processed

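Gene counts of 4 libraries (2 topotecan, 2 DMSO) were deposited by the authors as whole numbers in 1 table. STAR and edgeR were used to make it, per the submitters' processing notes, which give no version. No label or header names the build, the annotation, the counter or the strand setting, and 15 of the 38 members overlap another gene in RefSeq GRCr8. Per the labels' protocols a kit for small RNA was used for the libraries. The table held 22641 rows for 21648 identifiers, and the 792 identifiers on several rows, all with identical counts, were counted once. Columns were matched to samples by title.

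Counts were tested with edgeR 4.0.16 (R 4.3.3): TMM scaling, filterByExpr (minimum count 10, minimum total 15), quasi-likelihood F-test with treatment as the only term, 2 residual degrees of freedom, Benjamini-Hochberg adjustment over 12162 genes, threshold 0.05. The SE is the log2 fold change over the square root of F. CPM are counts per 1000000 after TMM scaling. Replicates differed by more than sampling noise (chi-square per degree of freedom 9.34 in topotecan and 13.0 in DMSO). Data were simulated for this comparison on 11987 genes, with 100 genes changed at each size. Of changes of 0.5 on the log2 scale 39% were called, and of changes of 1 92%. In the real data 1970 genes were higher and 2854 lower, which makes the Benjamini-Hochberg cut-off less strict there. The simulated shares are therefore not those of the real data, where small changes can still be missed.

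Spans and promoter windows come from RefSeq GRCr8, matched by Entrez number for all 38 members (spans) and 34 (windows). Values are given for members by a rule: the 8 highest and 8 lowest called members with separate groups, the 4 with the most counts, pairs called in opposite directions and the longest; others by range, with some added after their values were seen. The members and lists were chosen with earlier results of these data known. Values of 1 member, counted in the class totals and not drawn, and 1 promoter site are not reported here. Prorsd1 was put among the related proteins after the files were read. Alternatives tried were DESeq2 1.42.0, its size factors in edgeR, library totals only, scaling to pan-neuronal markers, no count filter, a replicate block and leaving out each library.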

Additional observations from a re-analysis of the deposited data

How the results depend on the processing

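Scaling to pan-neuronal markers moved the most results: 9 members were lower and 3 higher, with 2 and 1 for cytosolic and 7 and 0 for mitochondrial enzymes, 4 and 3 for tRNA partner genes and 4 and 3 for ATF4 genes. The class medians were then -0.012 and -0.36, and the estimates of Eprs and Aars turned to -0.022 and -0.095; the share of calls that were higher over all genes was 9.78%, against 40.8%. Genome-wide counts were 486 higher and 4484 lower there, against 1970 and 2854. Leaving out each library gave 1 to 4 members lower and 9 to 19 higher, 0 to 1 and 4 to 14 cytosolic, 1 to 3 and 0 to 2 mitochondrial, 1 and 4 to 11 tRNA partner genes, and 2 to 3 and 5 to 10 ATF4 genes. The medians ran from 0.18 to 0.33 (cytosolic) and from -0.21 to -0.041 (mitochondrial), and the difference in mitochondrial share from -1.02 to -0.72 percentage points. Without a count filter 2 mitochondrial enzymes were higher. With symbols ending in 2 taken as written, which adds Tarsl2 and Aimp2, 2 were higher and the share differed by -0.13, and without the most abundant enzyme of each class by -0.59. DESeq2 called 14 higher and 3 lower.

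Same-numbered libraries did not deviate together (r = -0.04 across genes), and the labels give no shared origin. With the replicate number as a block 15 members were higher and 3 lower, Vars lost its call and Eprs gained one. Members with few counts, such as Nars2 with an SE of 0.29, limit what could be detected. Under all settings 97 summary values stayed within 1.5 times the reported count or within replicate spread and 32 did not. Of single genes 122 values kept direction and side of the threshold, 21 lost a call, 5 gained one and 2 turned sign. The causes were not tested.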
